A study of Sus scrofa with 6 samples.

Results

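FOS, JUN, ATF3 and IER3 are immediate early or early response genes, and their transcripts were followed at 3 reproductive stages in 2 tissues of the sow (Sus scrofa), the ovary and a uterine tissue that the labels call myometrium. They were taken as every probe set whose single gene symbol in the platform annotation is one of the 4 symbols. This gave 4 probe sets, 1 per gene, of the 23999 non-control probe sets on the array, or 4 of 6567 named genes. The study hybridised 6 single-channel Affymetrix arrays, 1 for each tissue and stage. The groups were ovary from non-pregnant (np), early pregnant (EP) and late pregnant (LP) sows, and tissue labelled myometrium from np, EP and LP sows. No treatment or genotype is given in the labels, nor is the age or breed of the animals. The design text counts 9 pigs, 3 per stage, and the sources used here do not say whether an array carried RNA of 1 animal or of several. With 1 array in each group there are no replicates, so the ratio of 2 arrays has no error estimate and no test.

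Immediate early genes are transcribed within minutes of a growth factor, hormone or stress signal because the factors that switch them on are already present in the cell. FOS and JUN proteins pair through leucine zippers to form AP-1, a transcription factor that binds the promoters of later response genes. ATF3 is a stress-inducible member of the same basic leucine zipper class. IER3 is a short-lived early response protein tied to NF-kB and ERK signalling and to the control of apoptosis. In the ovary such genes respond to gonadotrophins, and in the myometrium AP-1 is known for its link to stretch and to the genes of labour. The transcripts are short-lived and also respond to the handling of tissue.

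The authors had scaled all 6 arrays to a common trimmed mean signal of 500.1, and 57.4% to 61.6% of probe sets on an array exceeded a signal of 81.7, the floor used here for low values. Pairs of ovary arrays correlated at r = 0.95 to 0.97 over 11733 probe sets. The np array labelled myometrium stood apart from the pregnant arrays of its tissue. It correlated with them at 0.876 (EP) and 0.835 (LP), against 0.928 between those 2 arrays, and with the ovary arrays at 0.861 to 0.874. Every EP over np and LP over np ratio in that tissue rests on this single array, and so does every comparison of the tissues at np. The arrays were checked against marker genes. The summed signal of 8 smooth muscle markers was 29103 to 46297 in ovary and 12748 to 24776 in the tissue labelled myometrium. The summed signal of 8 epithelial markers was 806 to 1186 in ovary, where KRT18, CLDN4 and CLDN7 did not exceed the floor, and 40744 to 49983 in the tissue labelled myometrium. The label myometrium therefore went with a lower smooth muscle sum than ovary and with strong epithelial transcripts. Luteal and granulosa markers, 10 in all, summed to 99493 to 117860 in ovary and 1495 to 13902 in the tissue labelled myometrium.

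FOS was brightest in early pregnancy in both tissues. Its signal in ovary was 1275 at np, 4314 at EP and 1158 at LP. The tissue labelled myometrium gave 958 at np, 2643 at EP and 2120.0 at LP. The EP ovary array was the highest of the 6 and the np array labelled myometrium the lowest, and the 2 tissues overlapped. In ovary the LP signal lay 1.10-fold below the np signal, the smallest step in the order of the 6 FOS values, whereas in the tissue labelled myometrium the LP signal stayed 2.21-fold above np.

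JUN, the main AP-1 partner of FOS, was low on the LP ovary array. Its signal in ovary was 3899.7 at np, 4861 at EP and 1488 at LP. Under the label myometrium it was 2433 at np, 3494 at EP and 2819 at LP. The 3 values labelled myometrium lay inside the range of the ovary values, and the LP ovary array was the lowest of the 6, 1.64-fold below the next. The highest stage exceeded the lowest 3.27-fold in ovary and 1.44-fold in the tissue labelled myometrium.

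ATF3 varied least of the 4 genes in ovary and most in the tissue labelled myometrium. Its signal in ovary was 329 at np, 429 at EP and 351 at LP. On the arrays labelled myometrium it was 142 at np, 1221 at EP and 1746.5 at LP. The 3 ovary values lay between the np array labelled myometrium and both pregnant arrays of that tissue. The np signal there was 1.74 times the floor, the closest of any of the 24 values to it.

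IER3 had opposite orders in the 2 tissues. Its signal in ovary was 617 at np, 298 at EP and 401.5 at LP. The arrays labelled myometrium gave 213 at np, 1277 at EP and 741 at LP. Early pregnancy gave the lowest ovary value and the highest value labelled myometrium, and np gave the highest ovary value and the lowest of all 6 arrays.

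**Figure D1:**
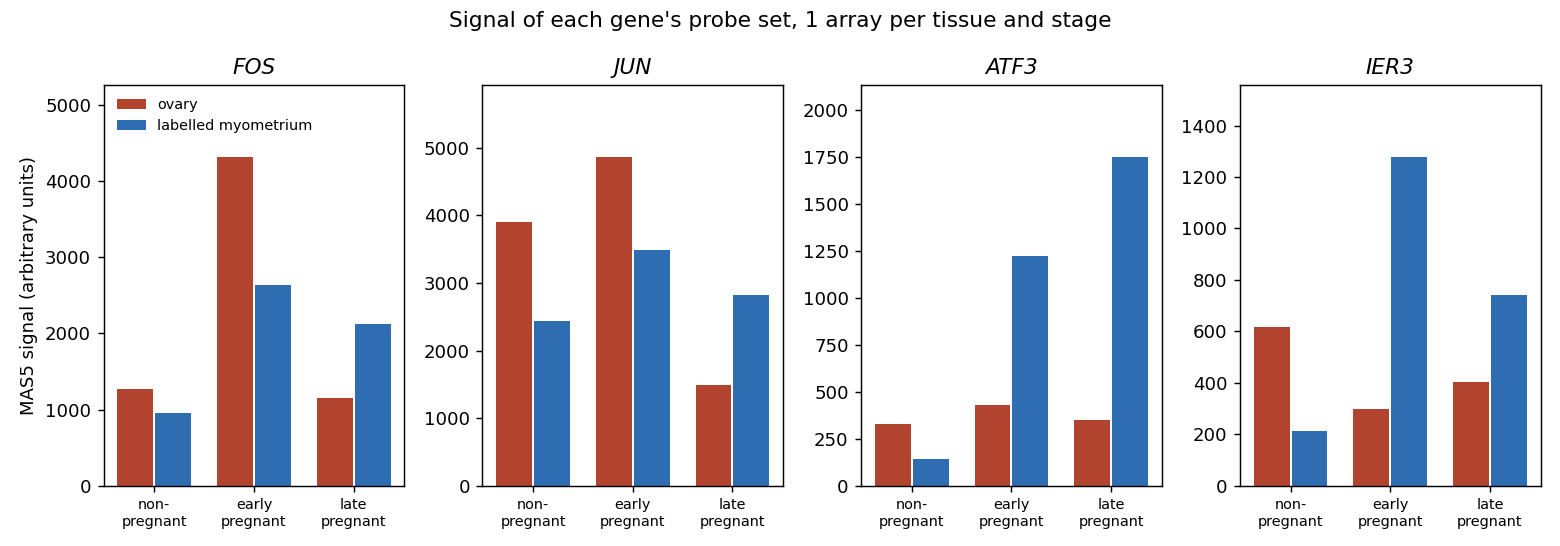
MAS5 signal (arbitrary units, linear axes from 0, a separate axis for each gene) of FOS, JUN, ATF3 and IER3 on the 6 arrays, ovary left of the tissue labelled myometrium at each stage; each bar is 1 array. FOS is highest at EP in both tissues, while ATF3 reaches 1221 and 1746.5 at EP and LP in the tissue labelled myometrium against 142 at np.

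Over the 3 stages FOS averaged 2249 ± 1789 in ovary and 1907 ± 862 in the tissue labelled myometrium (SD, n = 3 arrays of different stages). JUN averaged 3416 ± 1738 in ovary and 2915 ± 537 in the tissue labelled myometrium. ATF3 averaged 369.5 ± 52.8 in ovary and 1037 ± 818 in the tissue labelled myometrium. IER3 averaged 439 ± 163 in ovary and 743 ± 532 in the tissue labelled myometrium. These SDs hold the stage differences, so FOS and JUN had the larger spread in ovary, and ATF3 and IER3 in the tissue labelled myometrium.

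The first question was how each gene differed between stages within a tissue. In the tissue labelled myometrium, 3 of the 4 genes were at least 2-fold higher at EP than at np, against 8.76% of all probe sets measured in that pair. ATF3 was 8.61-fold higher, IER3 6.00-fold and FOS 2.76-fold, and JUN was 1.44-fold higher. The median log2 ratio of the 4 was 2.02, against -0.17 over all probe sets measured. The same 3 genes were at least 2-fold higher at LP than at np, against 10.9% of probe sets. ATF3 was 12.3-fold higher, IER3 3.48-fold and FOS 2.21-fold, and JUN was 1.16-fold higher. The median log2 ratio was 1.47, against -0.14 over all probe sets. With the floor at the 60th percentile of all signals, which lies above the np signal of ATF3, its log2 ratio was 2.31 at EP and 2.83 at LP, both lower bounds, against 3.11 and 3.62 with the floor used here. Between LP and EP none of the 4 genes reached 2-fold, against 11.5% of probe sets in either direction. The log2 ratio of LP to EP was 0.52 for ATF3, -0.31 for JUN, -0.32 for FOS and -0.79 for IER3. These 3 pairs share arrays, so their ratios are not independent of each other. In bulk tissue, fewer cells of a type and less RNA per cell cannot be told apart.

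Other transcripts moved with the same arrays. In the tissue labelled myometrium, 9.18% of named genes were at least 2-fold higher and 10.3% lower at EP than at np, and 13.2% were lower at LP than at np. A list of 14 trophoblast markers, drawn up after values had been seen, had 6 genes on the array. They summed to 666 at np, 56017 at EP and 69534 at LP in the tissue labelled myometrium, where all 6 exceeded the floor on at least 1 array. In ovary they summed to 1260 at np, 2697 at EP and 499 at LP, and GCM1, HAND1 and TFAP2C did not exceed the floor on any ovary array. None was at exactly 0. PLET1 and PAG6 made up most of the EP and LP sums, and 4 of the 6 genes were at least 2-fold higher at EP than at np in the tissue labelled myometrium. The luteal and granulosa sum there was 1495 at np, 11796 at EP and 13902 at LP, with 3 of 8 measured genes at least 2-fold higher at EP. They were CYP11A1, HSD3B1 and STAR, the cholesterol carrier of steroid synthesis, which had a signal of 13.2 at np, 5573 at EP and 6907 at LP. Other luteal and granulosa markers did not rise in this way. LHCGR and INSL3 did not exceed the floor on any array of that tissue. RLN2 had 118.5 at np, 150.4 at EP and 75.4 at LP, INHA 82.1, 124 and 64.8, and FST 382.5, 286.1 and 82. T and NK cell markers were lower at both pregnant stages, with a sum of 2817 at np, 1075 at EP and 480 at LP. Of the 6 measured, 4 were at least 2-fold lower at EP than at np and 5 at LP. Macrophage markers were mixed. Their sum was 3368 at np, 7473 at EP and 7447 at LP, of which AIF1 alone gave 1136.5 at np, 6127 at EP and 5016 at LP. The median log2 ratio of the 6 macrophage markers at EP over np was -0.75, with 2 at least 2-fold higher and 1 lower. The smooth muscle sum was 12748 at np, 23322 at EP and 24776 at LP, with 1 of 8 markers at least 2-fold higher at EP and a median log2 ratio of 0.52. The part of these cell types in the ratios of ATF3, IER3 and FOS was not tested.

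In ovary, different genes of the 4 passed 2-fold in different pairs. FOS was 3.38-fold higher at EP than at np and was the only 1 of the 4 past 2-fold in that direction, against 2.45% of probe sets. IER3 was 2.07-fold lower, the only 1 of the 4 past 2-fold downward, against 2.15% of probe sets. JUN was 1.25-fold and ATF3 1.31-fold higher. At LP against np, JUN was 2.62-fold lower, 1 gene of 4 against 3.65% of probe sets. The log2 ratio of LP to np was -0.14 for FOS, which turned to 0.01 when arrays were centred on their medians, 0.093 for ATF3 and -0.62 for IER3. At LP against EP, FOS was 3.73-fold lower and JUN 3.27-fold lower, so that both AP-1 partners and 2 of the 4 genes passed 2-fold, against 2.71% of probe sets. ATF3 had a log2 ratio of -0.29 and IER3 of 0.43 in that pair.

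Smooth muscle markers moved with FOS on the same ovary arrays, and matrix markers did so in part. Of named genes in ovary, 2.01% were at least 2-fold higher at EP than at np and 2.37% lower at LP than at EP. The smooth muscle sum in ovary was 37479 at np, 46297 at EP and 29103 at LP. Of the 8 markers, 4 were at least 2-fold higher at EP than at np, with a median log2 ratio of 1.13, and 6 were at least 2-fold lower at LP than at EP, with a median of -1.18. Of 4 fibroblast and matrix markers, 1 was at least 2-fold higher at EP than at np. It was LUM, which stayed above np at LP by a log2 ratio of 1.16, unlike FOS. Another 2, COL1A2 and COL3A1, were at least 2-fold lower at LP than at EP. Of 3 trophoblast markers measured in ovary, 2 were at least 2-fold higher at EP than at np and 2 lower at LP than at EP. Macrophage markers in ovary summed to 6178 at np, 3292 at EP and 3197 at LP. Of the 6 measured, 3 were at least 2-fold lower and 0 higher at EP than at np, against 2.47% of named genes lower. The median log2 ratio was -0.96 at EP and -0.99 at LP against np. IER3 was likewise lower at both pregnant stages. The part of these cell types in the ovary ratios of FOS, JUN and IER3 was not tested.

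**Figure D2:**
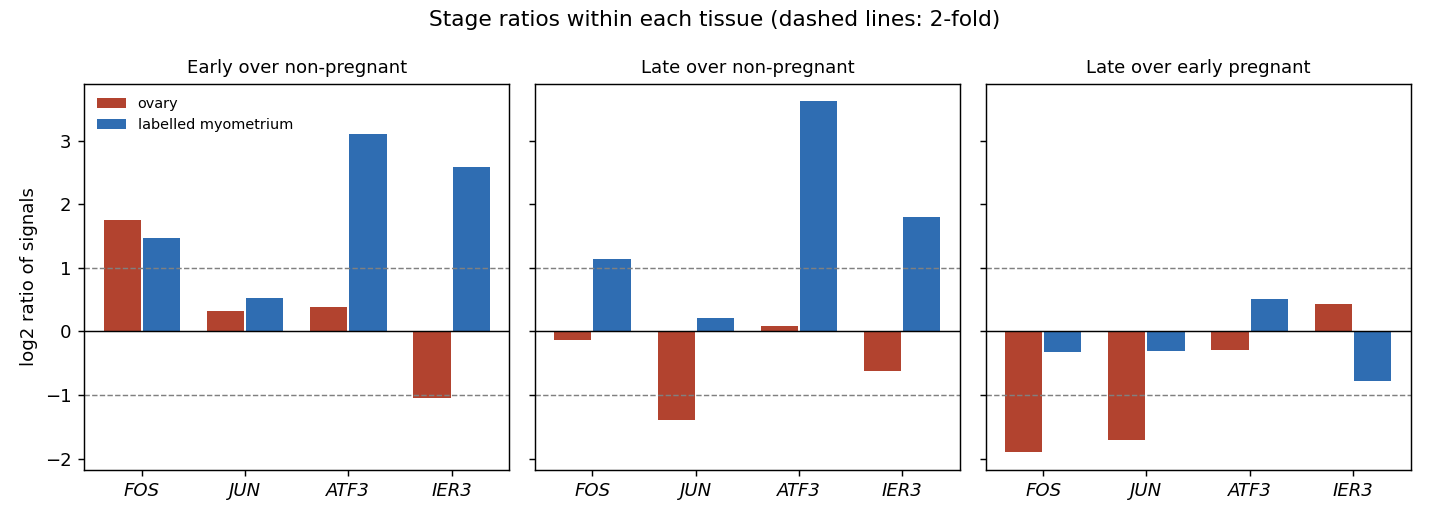
Log2 ratio of signals between 2 stages of a tissue for each gene, 1 array on each side, ovary bars left of those labelled myometrium; dashed lines mark 2-fold. ATF3 and IER3 are high in the tissue labelled myometrium at both pregnant stages, and FOS and JUN are low in ovary at LP against EP.

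The span over the stages of a tissue places each gene among the 15882 probe sets that exceeded the floor on at least 2 arrays. In ovary, FOS spanned 1.90 on the log2 scale, as much or more than which only 1.21% of probe sets spanned, and JUN spanned 1.71, reached by 1.66%. IER3 spanned 1.05 in ovary, reached by 8.66% of probe sets, and ATF3 0.38, reached by 56.3%. The tissue labelled myometrium had ATF3 and IER3 ahead of FOS and JUN instead. ATF3 spanned 3.62 there, reached by 1.67% of probe sets, IER3 2.58, reached by 3.85%, FOS 1.46, reached by 15.3%, and JUN 0.52, reached by 66.7%. The median span of all these probe sets was 0.43 in ovary and 0.72 in the tissue labelled myometrium.

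**Figure D3:**
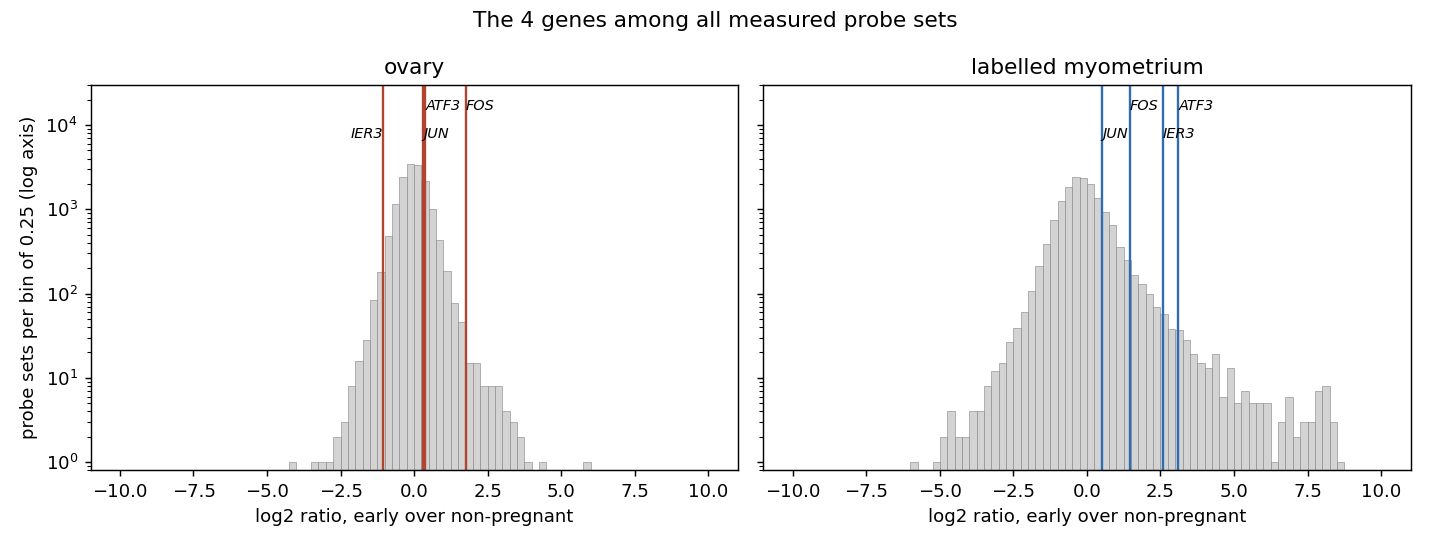
Histograms of the log2 ratio of EP to np over all probe sets measured in that pair, ovary on the left and the tissue labelled myometrium on the right, with a logarithmic count axis in bins of 0.25; vertical lines mark the 4 genes. In ovary FOS lies at 1.76 and IER3 at -1.05, and in the tissue labelled myometrium ATF3 lies at 3.11 and IER3 at 2.58, out in the right tail.

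The stage ratios of the 2 tissues were then set against each other as the ovary log2 ratio minus that of the tissue labelled myometrium. For EP over np the difference was 0.29 for FOS, -0.20 for JUN, -2.72 for ATF3 and -3.63 for IER3. ATF3 and IER3, 2 of 4, differed by 2 or more, against 4.67% of probe sets measured in both tissues. For LP over np the difference was -1.29 for FOS, -1.60 for JUN, -3.53 for ATF3 and -2.42 for IER3. The same pair differed by 2 or more, again 2 of 4, against 6.75% of probe sets. For LP over EP the difference was -1.58 for FOS, -1.40 for JUN, -0.81 for ATF3 and 1.21 for IER3, and 0 of 4 reached 2, against 2.85% of probe sets. Each of these differences rests on 4 arrays with no replicate, and none could be tested.

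The second question was how the tissues differed at a given stage. At np all 4 genes were brighter in ovary than in the tissue labelled myometrium. IER3 was 2.90-fold higher and ATF3 2.32-fold higher, 2 of 4 genes past 2-fold against 8.74% of probe sets, and JUN was 1.60-fold and FOS 1.33-fold higher. ATF3 did not pass 2-fold in this pair, with a log2 ratio of 0.42, when the floor was set at the 60th percentile of all signals. At EP, IER3 was 4.28-fold lower and ATF3 2.85-fold lower in ovary, 2 of 4 genes against 10.6% of probe sets, while FOS was 1.63-fold and JUN 1.39-fold higher. At LP all 4 genes were dimmer in ovary, and ATF3 alone passed 2-fold, at 4.98-fold lower, 1 of 4 against 12.6% of probe sets. The log2 ratio at LP was -0.87 for FOS, -0.92 for JUN and -0.88 for IER3. Thus ATF3 and IER3 were higher in ovary at np and lower in ovary at both pregnant stages, and FOS and JUN were lower in ovary at LP only.

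A tissue difference shared by all 3 stages was tested with limma, with tissue and stage as additive terms over the 6 arrays and Benjamini-Hochberg adjustment over 15882 probe sets. Whatever stage effect differed between the tissues enters the residual of this fit, and its p-values measure the spread between arrays, not between animals. The fit called 805 probe sets, or 5.07%, of which 451 were higher in ovary and 354 higher in the tissue labelled myometrium. None of the 4 genes was among them, nor among the 3471 (21.9%) with an unadjusted limma p under 0.05. The log2 difference of ovary minus the tissue labelled myometrium was 0.08 ± 0.35 (SE) for FOS, with a limma adjusted p of 0.918 and a 95% interval of -0.78 to 0.95. It was 0.08 ± 0.35 for JUN, with a limma adjusted p of 0.922 and an interval of -0.78 to 0.94. ATF3 had a difference of -0.87 ± 0.68, with a limma adjusted p of 0.515 and an interval of -2.56 to 0.82. IER3 had -0.48 ± 0.68, with a limma adjusted p of 0.731 and an interval of -2.17 to 1.21. The intervals of ATF3 and IER3 still hold differences of over 4-fold, so the data do not show that the tissues were alike. Leaving out the EP arrays turned the sign for FOS (-0.23), JUN (-0.12) and IER3 (0.33), and leaving out the np arrays turned it for FOS (-0.083) and JUN (-0.22). Without the np arrays the difference was -1.91 for ATF3 and -1.49 for IER3, with limma adjusted p-values of 0.0753 and 0.148. The residual SD was 1.31 for both ATF3 and IER3, 0.59 for FOS and 0.62 for JUN, against a median of 0.32 over all probe sets tested.

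Stage differences shared by both tissues were tested in the same limma fit. In these contrasts the arrays of the 2 tissues at a stage stand in for replicates, which they are not. It called 0% of the 15882 probe sets in each of the 3 stage contrasts at an adjusted p under 0.05. At an unadjusted limma p under 0.05 it found 686 probe sets (4.32%) for EP minus np, 964 (6.07%) for LP minus np and 261 (1.64%) for LP minus EP. None of these shares lies far above 0.05, the share that the threshold itself would let through without any stage difference. FOS had the smallest unadjusted p of the 4 genes between EP and np, where its log2 difference was 1.61 ± 0.43 (SE), with an unadjusted limma p of 0.0101 and an adjusted p of 0.822. It was higher at EP in both tissues. Its LP minus EP difference was -1.11 ± 0.43, with an unadjusted limma p of 0.0429 and an adjusted p of 1, and it was lower at LP in both tissues. JUN was likewise dimmer at LP than at EP in both tissues, by a log2 difference of -1.01 ± 0.43 with a limma adjusted p of 1. ATF3 had a log2 difference of 1.75 ± 0.84 for EP minus np and 1.86 ± 0.84 for LP minus np, with limma adjusted p-values of 0.822 and 0.711. IER3 had 0.77 ± 0.84 and 0.59 ± 0.84 for the same contrasts.

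**Figure D4:**
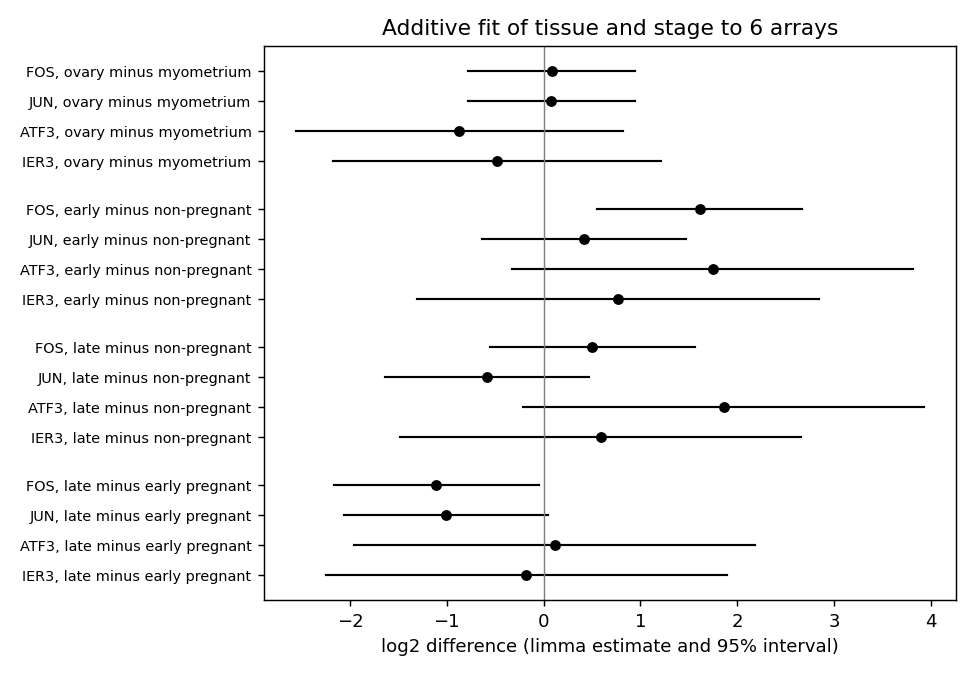
Log2 difference of each gene in the limma fit over 6 arrays (points) with its unadjusted 95% interval (lines), for the tissue difference at the top and the 3 stage differences under it. The intervals of FOS for EP minus np (0.55 to 2.67) and LP minus EP (-2.17 to -0.05) leave out 0, and neither passes the adjustment over all probe sets. For the stage differences the tissues stand in for replicates, which they are not.

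Among the wider AP-1 family of 21 genes, which counts FOS, JUN and ATF3, 8 were on the array and 7 entered the limma fit, which called 0 of 7 between the tissues. CREM, a cAMP-responsive leucine zipper factor, came nearest, with a log2 difference of -0.997 and a limma adjusted p of 0.0903. In ovary at LP against EP, 3 of the 6 family members measured were at least 2-fold lower, against 2.37% of named genes. They were FOS and JUN, both already counted above, and FOSL2, a FOS relative and the only further gene. FOSL2 was 2.84-fold lower, with a signal of 92.6 at LP and 263 at EP. In the tissue labelled myometrium at EP against np, 3 of 7 were at least 2-fold higher, against 9.18% of named genes. These were ATF3 and FOS, both already counted above, and CREM, the only further gene, which was 2.73-fold higher. Both family counts thus rest mostly on the genes followed here.

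A list of 52 other immediate early and early response genes, without the 4 genes, had 32 on the array. In the tissue labelled myometrium, 9 of 27 measured were at least 2-fold higher at EP than at np and 1 was lower, against 9.18% and 10.3% of named genes. Their median log2 ratio was 0.58, against -0.19 over named genes. CITED2, a transcriptional co-regulator, was 6.06-fold higher, with 5474 at EP and 904 at np. SGK1, a serum- and glucocorticoid-induced kinase, was 6.62-fold higher, with 4879 at EP and 737 at np. EGR1, a zinc finger immediate early factor, was 4.38-fold higher, with 1140.5 at EP and 260.4 at np. BTG2, an antiproliferative early response gene, was 4.53-fold higher. PTGS2, the inducible enzyme of prostaglandin synthesis, had a signal of 1197 at EP and was under the floor at np, which makes it at least 14.7-fold higher. At LP against np, 9 of 27 were at least 2-fold higher and 4 lower, against 11.3% and 13.2% of named genes, with a median log2 ratio of 0.37 against -0.16. PTGS2 was at least 22.8-fold higher there.

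In ovary the same list had 1 of 26 genes at least 2-fold higher at EP than at np and 0 lower, against 2.01% and 2.47% of named genes, with a median log2 ratio of 0.33 against -0.08. The gene past 2-fold was SGK1, at a log2 ratio of 1.14. At LP against EP, 5 of 26 were at least 2-fold lower and 0 higher, against 2.37% and 1.31% of named genes, with a median log2 ratio of -0.46 against 0.03. They included FOSL2 and CITED2, which was 2.46-fold lower. Between the tissues limma called 2 of 27, both higher in ovary, against 167 higher and 143 lower of 5673 named genes. GADD45A, a stress-inducible growth arrest gene, had a log2 difference of 2.22 with a limma adjusted p of 0.0119. GADD45B, its relative, had 1.83 with a limma adjusted p of 0.0337. The list's median tissue difference was 0.02, against 0.03 over named genes.

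**Figure D5:**
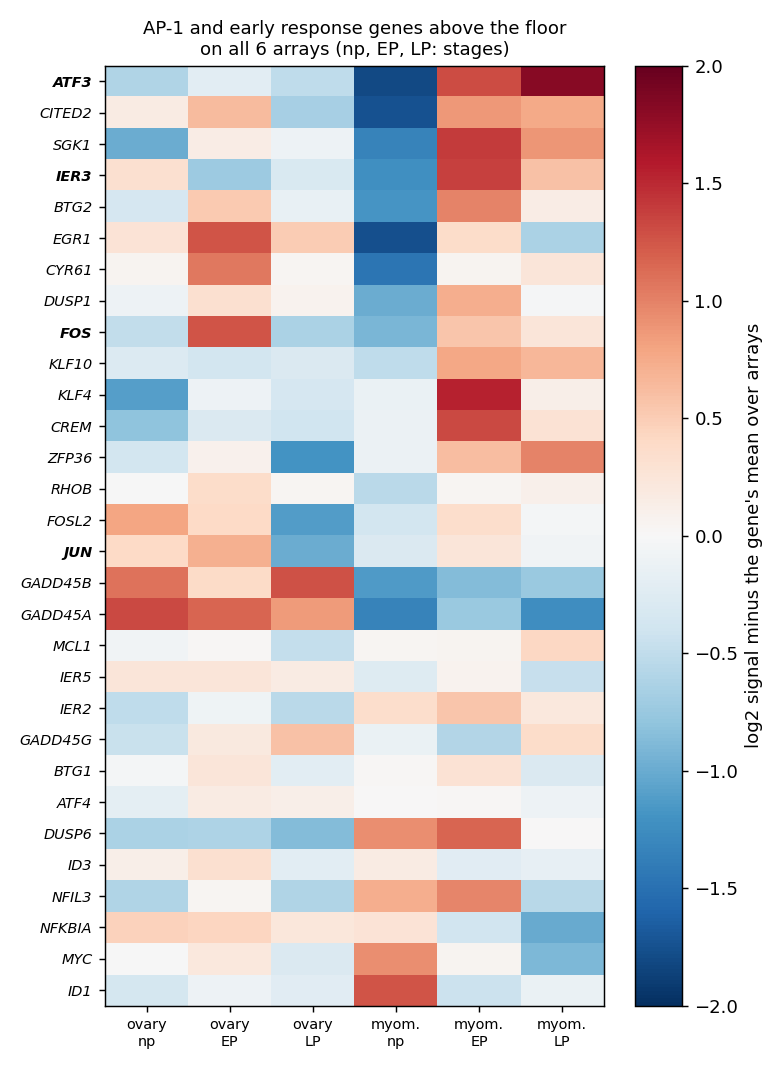
Heat map of 30 AP-1 and early response genes above the floor on all 6 arrays; colour gives the log2 signal minus the gene's own mean over the arrays, ovary columns left of those labelled myometrium (myom.), with the 4 genes in bold. ATF3, IER3, CITED2 and SGK1 are lowest on the np array labelled myometrium and highest on a pregnant array of that tissue.

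Genes upstream of the 4 were measured in the same pair of arrays labelled myometrium, EP over np, in which 9.18% of named genes were at least 2-fold higher and 10.3% lower, with a median log2 ratio of -0.19. Of 24 upstream kinases and factors, 12 were on the array. In the tissue labelled myometrium 0 of 10 measured were at least 2-fold higher at EP than at np, and 1 was lower, the ribosomal S6 kinase gene RPS6KA1 at a log2 ratio of -1.15. Their median log2 ratio was 0.29, and limma called 0 of 9 between the tissues. With so few genes, 0 of 10 lies near the 9.18% of named genes. These are transcript signals, and the activity of the kinases and factors was not measured. Of 16 integrated stress response genes, the pathway through which ATF3 is induced by amino acid shortage and endoplasmic reticulum stress, 10 were measured. Of these, 1 was at least 2-fold higher at EP than at np in the tissue labelled myometrium, the leucine zipper factor CEBPB at a log2 ratio of 1.58, and limma called 0 of 10 between the tissues. Their median log2 ratio at EP against np was 0.17. PPP1R15A, also on this list, was under the floor at np, so its log2 ratio of 0.98 in that pair is a lower bound. At LP against np in that tissue, 2 of 10 were at least 2-fold higher, against 11.3% of named genes. Of 15 heat shock genes measured, 0 were at least 2-fold higher and 1 was lower at EP than at np in the tissue labelled myometrium, with a median log2 ratio of -0.38. Limma called 1 of 15 between the tissues, the co-chaperone DNAJA1, higher in ovary by a log2 difference of 1.13 with an adjusted p of 0.0411.

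Genes downstream were read against the same shares. Of 16 genes known as AP-1 targets in other settings, 12 were on the array. At EP against np, 5 of 9 measured in the tissue labelled myometrium were at least 2-fold higher and 0 lower, with a median log2 ratio of 1.18. SPP1, which encodes the adhesion protein osteopontin, was 21.6-fold higher, with 28071 at EP and 1297 at np. VEGFA, an angiogenic growth factor, was 4.41-fold higher. In ovary 1 of 9 was higher and 3 were lower in that pair, with a median log2 ratio of -0.53, against 2.01% and 2.47% of named genes and a median of -0.08. Limma called 1 of 9 between the tissues, FST, which encodes the activin-binding protein follistatin, higher in ovary by a log2 difference of 4.01 with an adjusted p of 0.0216. FST is also on the luteal and granulosa marker list, of which limma called 7 of 10 genes higher in ovary. Of 19 NF-kB inhibitor and inflammatory genes, 11 were on the array. At EP against np, 2 of 8 measured in the tissue labelled myometrium were at least 2-fold higher and 1 lower, with a median log2 ratio of 0.34. The cytokine gene IL6 was 5.42-fold higher, with 820 at EP and 151 at np. NFKBIA, an NF-kB inhibitor, had a log2 ratio of -0.65 in that pair, where IER3 was higher. In ovary 1 of 6 was higher and 0 lower, with a median log2 ratio of 0.22. Limma called 1 of 8 between the tissues, the chemokine gene CCL2, higher in ovary by a log2 difference of 2.18 with an adjusted p of 0.0306.

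The 4 genes did not share a single profile. Over the 6 arrays the Pearson correlation of log2 signal was 0.82 between ATF3 and IER3, 0.69 between FOS and JUN, 0.57 between FOS and ATF3 and 0.29 between FOS and IER3. It was 0.20 between JUN and ATF3 and 0.19 between JUN and IER3. These values describe 6 points that share tissue, stage and array scaling.

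The named genes most like each of the 4 were taken by the same correlation over the 6 arrays, among 1451 genes above the floor on every array and with an SD of log2 signal of at least 0.5. For FOS they were PDE4B (r = 0.92), a cAMP phosphodiesterase, ADM (0.87), which encodes the vasodilator adrenomedullin, MEDAG (0.87), MSRB3 (0.84) and ANPEP (0.84). For JUN they were FOSL2 (0.94), its possible AP-1 partner, C1R (0.87), a complement protease, PDZRN3 (0.83), TNFSF10 (0.82) and MGRN1 (0.82). For ATF3 they were the lysosomal enzyme gene GLB1 (0.99), CPM (0.99), NUDT4 (0.98), MAGED1 (0.98) and RMND5A (0.98). For IER3 they were ATP6V1B2 (0.97) and ATP6V1C1 (0.95), both subunits of the vacuolar proton pump, with ME2 (0.96), ELOVL6 (0.94) and EPAS1 (0.93). With 6 points and so many genes compared, high correlations arise easily, and they are given as a description.

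Measures of RNA quality and hybridisation were set beside these values. For GAPDH, the signal near the 3' end divided by that near the 5' end was 2.33 at np, 1.99 at EP and 1.51 at LP in ovary, and 1.52 at np, 1.70 at EP and 1.53 at LP in the tissue labelled myometrium. In ovary this ratio was lowest on the LP array, where FOS and JUN were lowest of the 3 stages. The same measure for actin was 3.38 at np, 2.56 at EP and 3.22 at LP in ovary, lowest on the EP array, where FOS and JUN were highest. In the tissue labelled myometrium it was 3.49 at np, 2.64 at EP and 2.76 at LP, highest on the np array, where all 4 genes were lowest of the 3 stages. Hybridisation controls were read as their mean log2 signal minus its mean over the arrays. They lay at 0.50 at np, 0.07 at EP and -0.01 at LP in ovary. The arrays labelled myometrium had -0.12 at np, -0.15 at EP and -0.29 at LP. The np ovary array, on which every ovary ratio to np rests, was thus the furthest from the mean. The part of RNA quality or hybridisation in the ratios of the 4 genes was not tested. The sources used here do not give the time between collection and freezing.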

How the data were processed

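Total RNA from frozen sow tissue was labelled with biotin and hybridised to 6 arrays, per the labels' protocols. The deposited values are linear intensity values from MAS5, as the submitters' processing notes name it, which the authors had scaled to a common trimmed mean. The sources used here give neither the MAS5 settings nor a genome build. Scaling hides changes in total RNA. The 124 control probe sets were left out. Signals under 81.7, the 40th percentile of all signals, were raised to it before log2. A ratio was taken where at least 1 of the 2 arrays exceeded the floor, and a dim side at the floor gives "at least".

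Tissue and stage were fitted additively with limma 3.58.1 (R 4.3.3, intensity trend, 2 residual degrees of freedom) to the 15882 probe sets that exceeded the floor on 2 or more arrays, after testing on simulated data. The simulated probe sets all had the same spread and no stage effect, shared or differing between tissues. That test therefore does not show how the fit behaves for FOS, JUN, ATF3 and IER3. Summaries used Python 3.11.15, pandas 2.3.3, numpy 2.4.6, scipy 1.17.1 and matplotlib 3.10.9. Of the probe sets, 10069 had 1 gene symbol, 198 several and 13732 none; a gene with several probe sets was represented by its brightest. FOS, JUN, ATF3 and IER3 matched current gene records by gene identifier. From each gene list, up to 6 genes by tissue difference and up to 6 by stage ratio within a tissue could be named, and all 4 genes always. The 5 most correlated genes were named for each. Lists could share genes, as with FST, FOSL2, ATF4, PPP1R15A and NFKBIA. The 4 genes and the lists were chosen with earlier results of these data known, and the trophoblast list after values were seen here. Precision is limited by 1 array per group. Alternatives were other floors, a pseudocount of 16, no filter, quantile normalization, median centring, no intensity trend, no stage block and leaving out each stage.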

Additional observations from a re-analysis of the deposited data

Results flagged for a closer look

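Over the 4 genes and 3 pairs of stages, a gene's stage ratio was above 1 in one tissue and below 1 in the other in 6 cases. The share of all probe sets with opposite directions was not computed, so the count alone says nothing particular about these genes. Each is given as the ovary log2 ratio minus that of the tissue labelled myometrium, with 1 array behind each signal, and the difference was not tested in any of the 6. IER3 at EP over np differed by -3.63, with -1.05 in ovary and 2.58 in the tissue labelled myometrium. IER3 at LP over np differed by -2.42, with -0.62 in ovary and 1.80 in the tissue labelled myometrium. IER3 at LP over EP differed by 1.21, with 0.43 in ovary and -0.79 in the tissue labelled myometrium, so IER3 had opposite directions in all 3 pairs, which share arrays. JUN at LP over np differed by -1.60, with -1.39 in ovary and 0.21 in the tissue labelled myometrium. FOS at LP over np differed by -1.29, with -0.14 in ovary and 1.15 in the tissue labelled myometrium, and its ovary ratio turned to 0.01 under median centring. ATF3 at LP over EP differed by -0.81, with -0.29 in ovary and 0.52 in the tissue labelled myometrium.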

How the results depend on the processing

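The tissue differences of FOS, JUN, ATF3 and IER3 stayed short of the threshold in all 44 alternative fits, with a lowest limma adjusted p of 0.0753, and kept their direction in 39. The direction turned in 5, all when a stage was left out. For FOS the difference ranged from -0.23 without the EP arrays, through -0.083 without the np arrays, to 0.56 without the LP arrays. For JUN it ranged from -0.22 without the np arrays, through -0.12 without the EP arrays, to 0.58 without the LP arrays. For IER3 it ranged from -1.49 without the np arrays to 0.33 without the EP arrays, and for ATF3 from -1.91 without the np arrays to -0.15 without the LP arrays. The stage changes of the 4 genes kept their direction in 84 of 84 alternatives. They also stayed short of the threshold, with a lowest limma adjusted p of 0.684. That side was all but fixed in advance, since limma called no probe set in these contrasts except with no filter. With the floor at the 60th percentile, 1 gene instead of 2 was 2-fold higher in ovary at np, since the np signal of ATF3 labelled myometrium lies under that floor; its log2 ratio to np in that tissue was then 2.31 at EP and 2.83 at LP. The number of probe sets limma called between tissues was 477 with that floor, which tests fewer probe sets, 1214 without the stage block, which pairs the tissues within a stage, and 0 with no filter on low signals, where 2782 had an unadjusted p under 0.05. Leaving out a stage gave 0 calls without the EP arrays, with 1790 at an unadjusted p under 0.05, 227 without the LP arrays and 398 without the np arrays. With no filter, limma called 4 probe sets for EP minus np and 3 for LP minus np. The cause was not tested where none is named. Averaging probe sets per gene changes nothing here, as each gene has 1. By Euclidean distance in place of correlation, 4 of the 5 genes most like FOS, 5 of 5 for JUN, 2 of 5 for ATF3 and 3 of 5 for IER3 were shared. Single arrays limit every ratio.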
